A study of Mus musculus with 4 samples.

Results

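Colon RNA of mice gavaged with Escherichia coli was set against colon RNA of untreated mice, with 1 library for each condition. All mice were germ-free C57BL/6 animals aged 7 weeks. The E. coli group received bacteria by oral gavage at a density read here as 2e9 cfu/mL (the volume is not in the labels), and 4 cm of colon was taken 4 h later. Side values come from 1 library of mice given L. rhamnosus GG (LGG, a probiotic strain) at the same dose and 1 of mice given phosphate-buffered saline (PBS). The untreated library is labelled NT and belongs to none of the gavage groups that the labels name. Each gavaged group had 4 mice by the labels, which do not state the number of untreated mice, whether RNA of several mice was pooled, the E. coli strain, the time of day, or which stretch of the colon was cut. The genes described are the 14450 of 24016 in the table with a mean of at least 1 CPM (a count scaled to library size) over the 4 libraries.

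Germ-free mice are raised without any microbe, so a gavaged bacterium is the first their intestine meets. E. coli is a Gram-negative bacterium whose lipopolysaccharide is sensed through Toll-like receptor 4 and whose flagellin is sensed through Toll-like receptor 5, and both routes lead to NF-kB. The colon wall holds an absorptive and secretory epithelium, immune cells, enteric neurons, muscle and an outer mesothelium with attached fat. A piece of whole wall reads all of them together, and fewer cells of a type cannot be told apart from less RNA per cell.

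Total counts were 29368008 after E. coli, 29899371 after LGG, 16289580.0 after PBS and 27220697 untreated, so the PBS side values are the least precise. Ratios are log2 values of E. coli over untreated with a 95% counting interval. The size rule was met by a ratio of at least 1 in either direction whose interval did not include 0. With 1 library per condition no test between conditions could be made, so the rule speaks of these libraries alone, and intervals cover counting error only. A count of 0 allows up to 0.103 CPM in the E. coli and 0.105 CPM in the untreated library.

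Past the size rule were 340 genes, 2.35% of those measured. Of these, 119 (0.824%) were higher and 221 (1.53%) were lower in the E. coli library. Counts in the lists below are to be read beside these shares. Scaled by library totals, the split was 92 higher and 282 lower. The median ratio of all genes was 0.00, with 51.0% of ratios positive, and 88.1% of genes had a ratio under 0.5 in size. By the same count E. coli against PBS had 60 genes past the rule (0.415%), 25 higher (0.173%) and 35 lower (0.242%). LGG against untreated had 151 (1.04%) and PBS against untreated 209 (1.45%). Each of these pairs shares a library with E. coli against untreated, so the counts are not separate evidence. Genes of pancreas, fat and mesothelium, which are no part of the colon epithelium, lay among the largest ratios. Without 6 lists of genes of other tissues (pancreas, fat, mesothelium, red cells, squamous epithelium and skeletal muscle), the rule left 309 genes, of which 105 were higher and 204 lower.

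Rows that take up ribosomal RNA also set the libraries apart. Rn45s, the ribosomal RNA precursor, was at 5731 CPM after E. coli, 11566 after LGG, 12739.6 after PBS and 2359.6 untreated, a ratio of 1.28. Lars2, whose row covers a stretch that ribosomal reads are known to hit, was at 1085 CPM after E. coli, 1733 after LGG, 2397 after PBS and 487 untreated, a ratio of 1.16. They were highest in the PBS library and lowest in the untreated one. Their part in the clock, position and tissue groups was not tested.

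**Figure D1:**
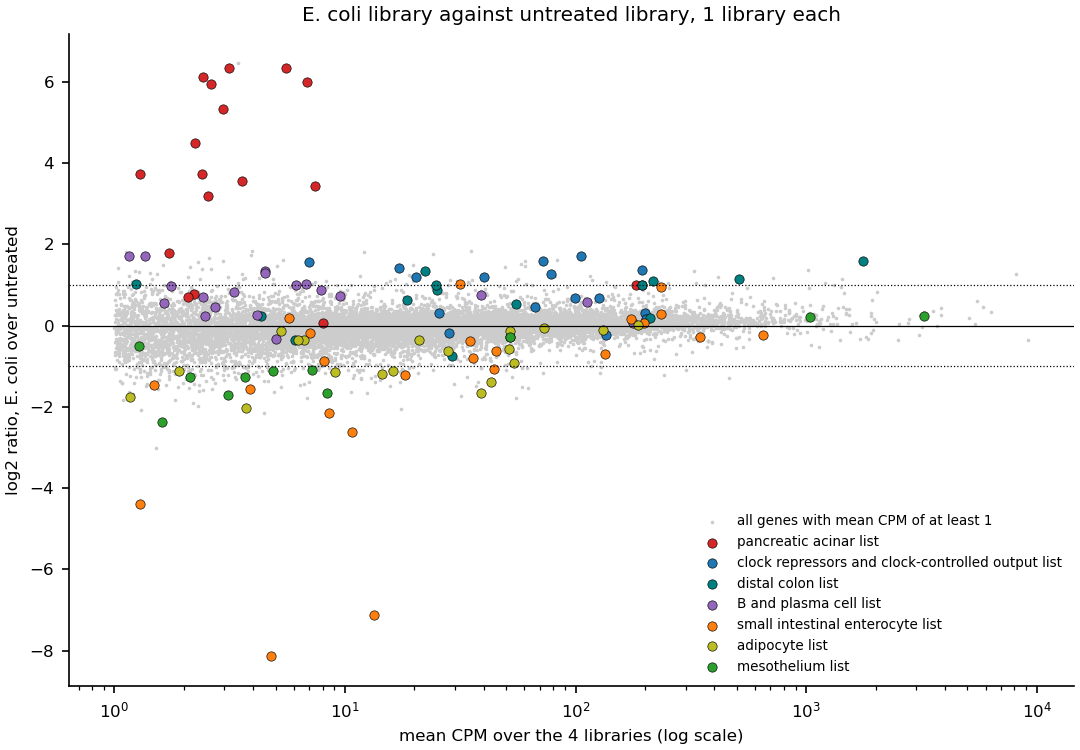
Each point is a gene, with its mean CPM over the 4 libraries on a log scale and its log2 ratio of E. coli over untreated; colours mark 7 gene lists, and dotted lines a 2-fold difference. Most genes lie between the dotted lines, pancreatic acinar genes reach ratios above 6 at low CPM, and the small intestinal genes Akp3 and Apoa4 lie lowest at -8.14 and -7.13.

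The tissue label was set against genes that define colon and its neighbours. Muc2, the main mucin of goblet cells, was at 8174 CPM after E. coli and 10513 CPM untreated, and the colonic chloride exchanger Slc26a3 was at 1673 and 859 CPM. The squamous keratins Krt5, Krt4 and Krt6a had at most 10 counts in any library, though 5 of 16 genes of the squamous list were measured. The small intestinal hormone gene Gip had 0 counts after E. coli and 5 counts untreated.

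Several genes of the circadian clock were past the rule. In the clock, the activators Bmal1 (gene Arntl) and Clock drive the Per and Cry repressors and a set of output transcription factors through E-box sequences. Rev-erb and ROR proteins set the level of Arntl, and PAR bZIP factors such as Dbp and Tef act on D-boxes, which Nfil3 represses. Of 16 measured repressor and output genes, 8 were higher past the rule and 0 lower, beside 0.824% and 1.53% of all genes. The list median was 0.94 beside 0.00 for all genes.

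Per2, a core repressor (NM_011066, mm9 chromosome 1 from 93312559 to 93355905), was at 128 CPM after E. coli, 118 after LGG, 139 after PBS and 38.9 untreated. The untreated library was low and the gavaged libraries were close to each other. The ratio of E. coli over untreated was 1.72 (1.62 to 1.82). Per3, a related repressor, was at 93.2 CPM after E. coli, 82.9 after LGG, 81.6 after PBS and 31.1 untreated, a ratio of 1.58 (1.47 to 1.69). Bhlhe41, a repressor that binds E-boxes, was at 8.95 CPM after E. coli, 7.69 after LGG, 8.23 after PBS and 3.01 untreated, a ratio of 1.57. Ciart, which represses Bmal1 and Clock, was at 21.6 CPM after E. coli, 16.9 after LGG, 22.1 after PBS and 8.06 untreated, a ratio of 1.42. In each of these genes the untreated library had the lowest of the 4 values.

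The other output genes past the rule were the PAR bZIP factors Tef (1.36), Dbp (1.26) and Hlf (1.20) and the deubiquitinase Usp2 (1.20). Of the remaining members, Per1 had a ratio of 0.67, Nr1d2 0.68, Cry2 0.47 and Cry1 0.31, none past the rule. Nr1d1, which encodes Rev-erb alpha, went the other way at -0.24 and was at 148 CPM after E. coli, 89.0 after LGG, 132 after PBS and 174 untreated.

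In the activator arm, with a list median of -0.34, Nfil3 and Npas2 were lower past the rule. Nfil3 was at 1.58 CPM after E. coli, 2.32 after LGG, 1.99 after PBS and 4.69 untreated, a ratio of -1.56 (-2.08 to -1.07). Npas2, an activator related to Clock, was at 13.4 CPM after E. coli, 11.3 after LGG, 14.8 after PBS and 29.5 untreated, a ratio of -1.14 (-1.31 to -0.96). Here the untreated library held the highest of the 4 values. Arntl, with 17.1 CPM after E. coli and 33.1 CPM untreated, was at -0.95 (-1.11 to -0.80) and missed the rule by its size. Clock itself was at -0.12. The labels do not give the time of day of any collection, and its part in these values was not tested.

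**Figure D2:**
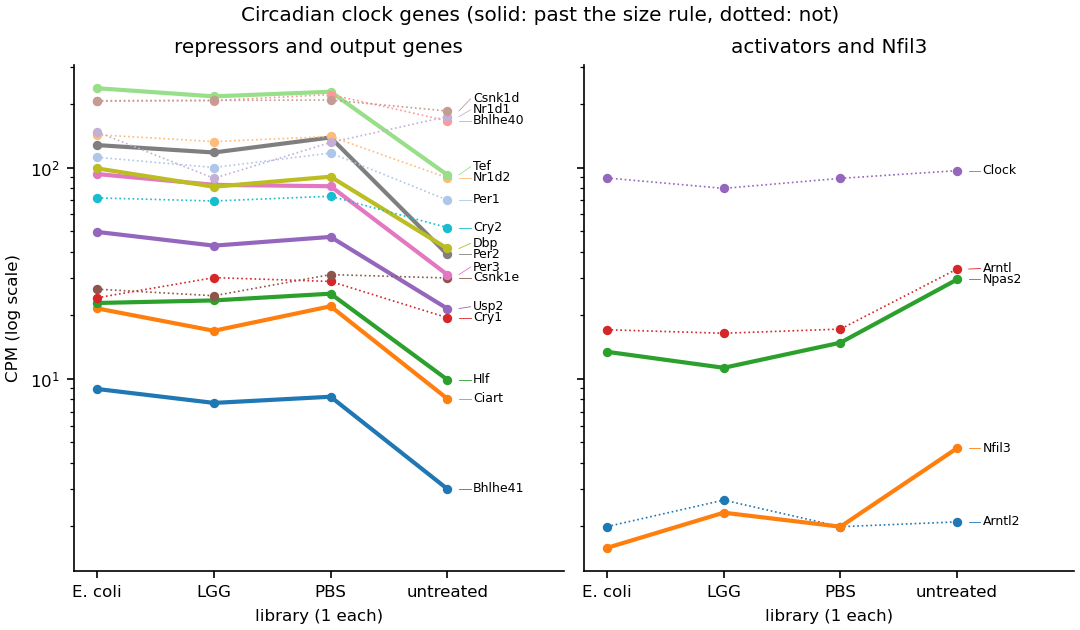
CPM on a log scale of the 16 repressor and output genes (left) and of the activators Arntl, Arntl2, Clock and Npas2 and of Nfil3 (right) in each of the 4 libraries, 1 point per gene and library, joined by a line per gene. The lines past the size rule turn at the untreated library. Per2 is at 128 CPM after E. coli and 38.9 CPM untreated, while Npas2 is at 13.4 CPM after E. coli and 29.5 CPM untreated.

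Promoter sequences are shown for 4 clock genes, those past the rule with the largest interval bound nearest 0 for which RefSeq gave a window (build GRCm38.p6), because the elements that control clock genes are known. Windows ran from 250 bases before to 50 bases after the annotated start, and 9 of the clock genes past the rule had one. The search covered the E-box CACGTG, the D-box TTATGNAA and the ROR and Rev-erb element TAGGTCA on both strands. An E-box was found in 3 of these 9 genes, a D-box in 1 and the ROR element in 1 (Nfil3). A gene was counted if any of its windows matched, and Tef had 2 windows. The background is per window and so is not a share of genes. Of all 32851 mouse windows, 7.15% held the E-box, 3.385% the D-box and 2.606% the ROR element. The 250 bases before the start are printed 5′ to 3′ in the direction of the gene, with matches in capitals. They lie at chr4:151044666-151044915 for Per3 (minus strand), chr15:81802423-81802672 for Tef (plus strand, the first of its 2 windows), chr6:145865421-145865670 for Bhlhe41 (minus strand) and chr3:95882229-95882478 for Ciart (minus strand).
Per3: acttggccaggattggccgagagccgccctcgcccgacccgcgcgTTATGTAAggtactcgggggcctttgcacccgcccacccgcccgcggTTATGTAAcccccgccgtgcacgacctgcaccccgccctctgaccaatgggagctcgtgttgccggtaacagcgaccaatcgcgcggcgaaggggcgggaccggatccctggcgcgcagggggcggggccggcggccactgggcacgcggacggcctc
Tef: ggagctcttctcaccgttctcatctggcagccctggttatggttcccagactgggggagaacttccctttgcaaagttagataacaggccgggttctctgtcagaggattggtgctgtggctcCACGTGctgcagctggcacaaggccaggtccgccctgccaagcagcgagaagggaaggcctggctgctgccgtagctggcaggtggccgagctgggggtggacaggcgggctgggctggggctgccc
Bhlhe41: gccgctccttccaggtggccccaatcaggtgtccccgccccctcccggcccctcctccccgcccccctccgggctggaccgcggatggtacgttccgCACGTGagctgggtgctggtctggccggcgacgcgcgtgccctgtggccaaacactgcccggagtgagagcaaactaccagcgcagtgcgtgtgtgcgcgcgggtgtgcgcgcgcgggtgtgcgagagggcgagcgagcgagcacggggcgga
Ciart: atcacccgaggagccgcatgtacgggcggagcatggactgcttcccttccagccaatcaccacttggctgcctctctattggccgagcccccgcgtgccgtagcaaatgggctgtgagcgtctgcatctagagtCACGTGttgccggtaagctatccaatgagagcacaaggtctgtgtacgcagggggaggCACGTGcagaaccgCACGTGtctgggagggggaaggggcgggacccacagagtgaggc
Per3 held D-boxes starting 205 and 158 bases before the start, Tef an E-box at 127 bases, Bhlhe41 an E-box at 153 bases, and Ciart 3 E-boxes at 116, 58 and 44 bases. A match describes letters in the window and not a bound site, and no match says only that these letters are not in it.

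Several genes that mark position along the intestine were past the rule. Hox genes lie in clusters in which the low paralog numbers are used toward the front of the body axis and the high numbers toward the rear, and the adult gut keeps part of this pattern. Of 39 Hox genes in the table, 27 had a mean of at least 1 CPM, and their ratios ran from -2.05 (Hoxb6) to 1.10 (Hoxb13). In all, 2 were higher and 10 lower past the rule, beside 0.824% and 1.53% of all genes. These genes were taken as a family after their values were seen.

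In the Hoxb cluster every gene from Hoxb3 to Hoxb8 was lower past the rule. Hoxb6 (NM_008269, mm9 chromosome 11 from 96160485 to 96162883) was at 7.95 CPM after E. coli, 17.0 after LGG, 11.7 after PBS and 33.1 untreated, a ratio of -2.05 (-2.27 to -1.85). Hoxb7 was at -1.78, Hoxb8 at -1.66, Hoxb5 at -1.39, Hoxb4 at -1.29 and Hoxb3 at -1.09. Hoxb9 did not share this, with 87.4 CPM after E. coli and 87.1 CPM untreated, a ratio of 0.01 (-0.07 to 0.09). At the end of the cluster Hoxb13, a marker of the hindmost gut (NM_008267, mm9 chromosome 11 from 96055675 to 96057913), was at 286 CPM after E. coli, 203 after LGG, 248 after PBS and 134 untreated, a ratio of 1.10 (1.04 to 1.15). The E. coli library thus held the lowest Hoxb6 and the highest Hoxb13 of the 4 libraries.

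In the Hoxd cluster the signs also changed along the row. Hoxd3 (-1.31), Hoxd4 (-1.47), Hoxd8 (-1.06) and Hoxd9 (-1.36) were lower past the rule, and Hoxd10 was at -0.36 and Hoxd11 at 0.24. Hoxd12 was higher at 1.01 (0.35 to 1.73), with 2.00 CPM after E. coli, 0.820 after LGG, 1.18 after PBS and 0.981 untreated. Without the E. coli library the mean of Hoxd12 would be under the expression filter. Hoxd13 was at 39.1 CPM after E. coli, 15.4 after LGG, 24.9 after PBS and 21.2 untreated, a ratio of 0.88 (0.74 to 1.03), below the size rule. For this gene the LGG library was lower than the untreated one. None of the 10 measured Hoxa genes passed the rule, and their ratios ran from -0.37 for Hoxa4 to 0.64 for Hoxa13 and 0.64 for Hoxa2. Hoxc genes each had a mean under 1 CPM over the 4 libraries and were not kept.

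**Figure D3:**
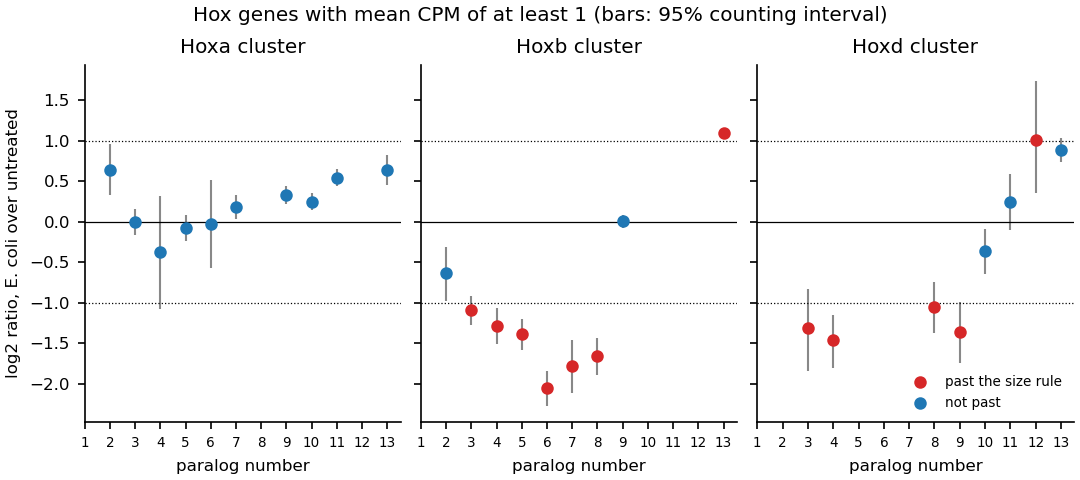
Log2 ratio of E. coli over untreated for each measured Hox gene against its paralog number in the Hoxa, Hoxb and Hoxd clusters, with 95% counting intervals as bars and genes past the size rule in red. Hoxb numbers 3 to 8 and the measured Hoxd numbers 3 to 9 lie below -1, Hoxb13 and Hoxd12 lie at 1.10 and 1.01, and Hoxa genes lie between -0.37 and 0.64.

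In the distal list 6 of 14 were higher past the rule and none lower, with a median of 0.94. Of all genes 0.824% were higher and 1.53% lower. Hoxd12, among these 6, met the expression filter only through the E. coli library. Prdx6 encodes a peroxide-reducing enzyme and was at 2387 CPM after E. coli, 1660.0 after LGG, 2242 after PBS and 792 untreated, a ratio of 1.59 (1.57 to 1.61). Scnn1g, a subunit of the epithelial sodium channel, was at 29.7 CPM after E. coli, 17.8 after LGG, 29.9 after PBS and 11.8 untreated, a ratio of 1.34 (1.15 to 1.52). Atp12a, the colonic proton-potassium pump, was at 691 CPM after E. coli, 466 after LGG, 573 after PBS and 312 untreated, a ratio of 1.15 (1.11 to 1.18). For these genes the E. coli and PBS libraries were the highest pair, LGG lay lower and the untreated library lowest. In the proximal list 7 of 15 were lower and 1 higher, with a median of -0.27. The lower members were Hoxb5, Hoxb6, Hoxb7, Hoxb8, Apoa4, Apoa1 and Cyp2c55, and the higher member was Insl5 (1.01), a colonic hormone gene. The position of the pieces is not given in the labels, and its part in the other gene groups was not tested.

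Genes of small intestinal enterocytes, which absorb lipid, sugar and peptides, included the 3 lowest ratios of the 14450 genes. Of 24 measured members 9 were lower and 1 higher past the rule, beside 1.53% and 0.824% of all genes, with a median of -0.66. Apoa4, an apolipoprotein secreted with dietary lipid (NM_007468, mm9 chromosome 9 from 46048927 to 46051541), was at 0.310 CPM after E. coli, 5.95 after LGG, 1.25 after PBS and 45.8 untreated, a ratio of -7.13 (-8.34 to -6.28) from 9 against 1308 counts. Akp3, an intestinal alkaline phosphatase (NM_007432, mm9 chromosome 1 from 89021583 to 89024487), had 1 count after E. coli and 416 untreated, a ratio of -8.14 (-14.03 to -6.24), and was at 4.03 CPM in the LGG and 0.561 CPM in the PBS library. Lct, the enzyme that splits milk sugar, was at 0.172 CPM after E. coli, 0.820 after LGG, 0.249 after PBS and 3.92 untreated, a ratio of -4.38 (-6.16 to -3.25). For all 3 genes the E. coli library was lowest, PBS was next, and the untreated library was highest. Lct was under 1 CPM in each gavaged library and met the expression filter only through the untreated one.

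Apoa1, the main apolipoprotein of HDL, was at 3.17 CPM after E. coli, 15.5 after LGG, 4.61 after PBS and 19.7 untreated, a ratio of -2.63 (-2.97 to -2.31). The remaining lower members were Prap1 (-2.16), the lipid transfer protein Mttp (-1.56), trehalase (Treh, -1.47), sucrase-isomaltase (Sis, -1.22) and the aminopeptidase Enpep (-1.07). On the other side Rbp2, a retinol carrier, was higher at 37.6 CPM after E. coli, 35.2 after LGG, 35.0 after PBS and 18.4 untreated, a ratio of 1.03, and the peptide transporter Slc15a1 was at 0.95. The brush border enzymes Mgam (0.07) and Mep1a (-0.23) and the glucose transporter Slc5a1 (0.29) had small ratios.

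Colonocyte genes were split. Of 20 members 2 were higher and 3 lower, beside 0.824% and 1.53% of all genes. The median of 0.06 took the opposite sign with library totals (-0.02). Slc51a, a subunit of the basolateral bile acid exporter, was at 28.9 CPM after E. coli, 53.2 after LGG, 38.1 after PBS and 99.8 untreated, a ratio of -1.79 (-1.90 to -1.68). Cyp2c55, a cytochrome P450 of the colon, was at 154 CPM after E. coli, 269 after LGG, 187 after PBS and 358 untreated, a ratio of -1.21 (-1.26 to -1.16). Higher were Slc20a1, a phosphate transporter, at 1.18 (1.14 to 1.21), and Aqp8, a water channel of surface cells, at 321 CPM after E. coli, 267 after LGG, 259.5 after PBS and 156 untreated, a ratio of 1.04 (0.99 to 1.09).

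Of 21 genes of colonic ion and water transport, 3 were higher and none lower past the rule, with a median of 0.33 and 16 positive ratios. Beside Scnn1g and Atp12a these included the bicarbonate channel Best2 at 1.03 (0.93 to 1.14). The aldosterone-regulated genes Scnn1b (0.99), Scnn1a (0.68) and Hsd11b2 (0.55) were positive without passing. All 7 measured bile acid genes had negative ratios, with a median of -0.38. Slc51a was the 1 past the rule, the ileal uptake carrier Slc10a2 was at -0.87 and Fabp6, which binds bile acids in the cell, at -0.83. Fgf15, the hormone by which the ileum signals bile acid uptake to the liver, had 1 count after E. coli and 0 untreated.

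Metabolic genes were mixed. In the xenobiotic list 7 of 34 were lower and 1 higher, beside 1.53% and 0.824% of all genes, with a median of -0.24. The lower genes with the largest ratios were Ugt8a, a galactosyltransferase of lipids, at -1.60 (-2.14 to -1.11) and the conjugating enzyme Ugt2b5 at -1.48 (-1.69 to -1.28). The carboxylesterase Ces1g was at -1.44 (-1.58 to -1.29) and Cyp4b1, a cytochrome P450, at -1.25 (-1.36 to -1.15). Ugt2b and Ces1 genes have close relatives that can share reads. The single higher gene was the retinol and alcohol dehydrogenase Adh1, at 988 CPM after E. coli, 703 after LGG, 758 after PBS and 436 untreated, a ratio of 1.18. Among 21 targets of PPAR-alpha and fasting 4 were lower and none higher. Among them were Vnn1, which makes pantothenate (-1.44), Acaa1b of peroxisomal fat oxidation (-1.43) and Pdk4, an inhibitor of pyruvate dehydrogenase (-1.09), and the list median was -0.13.

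None of 27 cholesterol and fatty acid synthesis genes passed the rule, but 22 ratios were positive and the median was 0.32. Scd2, a fatty acid desaturase, was at 0.46. Scd1, the other desaturase of the list, was at 186 CPM after E. coli, 299.6 after LGG, 303 after PBS and 304 untreated, a ratio of -0.71 (-0.75 to -0.66), with the E. coli library alone low.

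Among secretory and proliferating cells, hormone genes stood out. Of 15 enteroendocrine genes 3 were lower and 1 higher, beside 1.53% and 0.824% of all genes, with a median of -0.71. Nts, which encodes neurotensin, was at 5.82 CPM after E. coli, 10.6 after LGG, 7.79 after PBS and 18.1 untreated, a ratio of -1.64 (-1.90 to -1.39). Tph1, the enzyme that starts serotonin synthesis in enterochromaffin cells, was at 8.47 CPM after E. coli, 8.75 after LGG, 10.1 after PBS and 18.7 untreated, a ratio of -1.14 (-1.37 to -0.92). Sct, which encodes secretin, was at -1.08 (-1.29 to -0.88), while Insl5, a hormone of hindgut L cells, was higher at 1.01 (0.90 to 1.11). Of other hormones of L cells, Pyy was at 0.21 and Gcg at -0.45, neither past the rule.

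No goblet, tuft, stem cell or cell cycle gene was past the rule, where 2.35% of all genes were. Lists this short can hold none at that share. The goblet median over 15 genes was 0.10, with Muc2 at -0.36 (-0.37 to -0.36) and Fcgbp, a mucus protein, at 0.33 (0.32 to 0.34). The tuft median over 7 genes was -0.17, with Ptgs1 at 0.01 and Dclk1 at -0.43. The stem cell and Wnt median over 13 genes was 0.04 (-0.04 with library totals), with Lrig1 at -0.03 and Sox9 at 0.02. Lgr5, the crypt stem cell marker, was at -0.01. The cell cycle median over 20 genes was -0.29. Mki67 was at -0.33 (-0.39 to -0.26) and Pcna, a replication clamp, at 0.03. The mitotic genes of the list were negative and the replication genes Mcm2, Mcm3, Mcm5 and Mcm6 lay between 0.05 and 0.19, while Rrm2, which makes deoxynucleotides, was at -0.47.

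**Figure D4:**
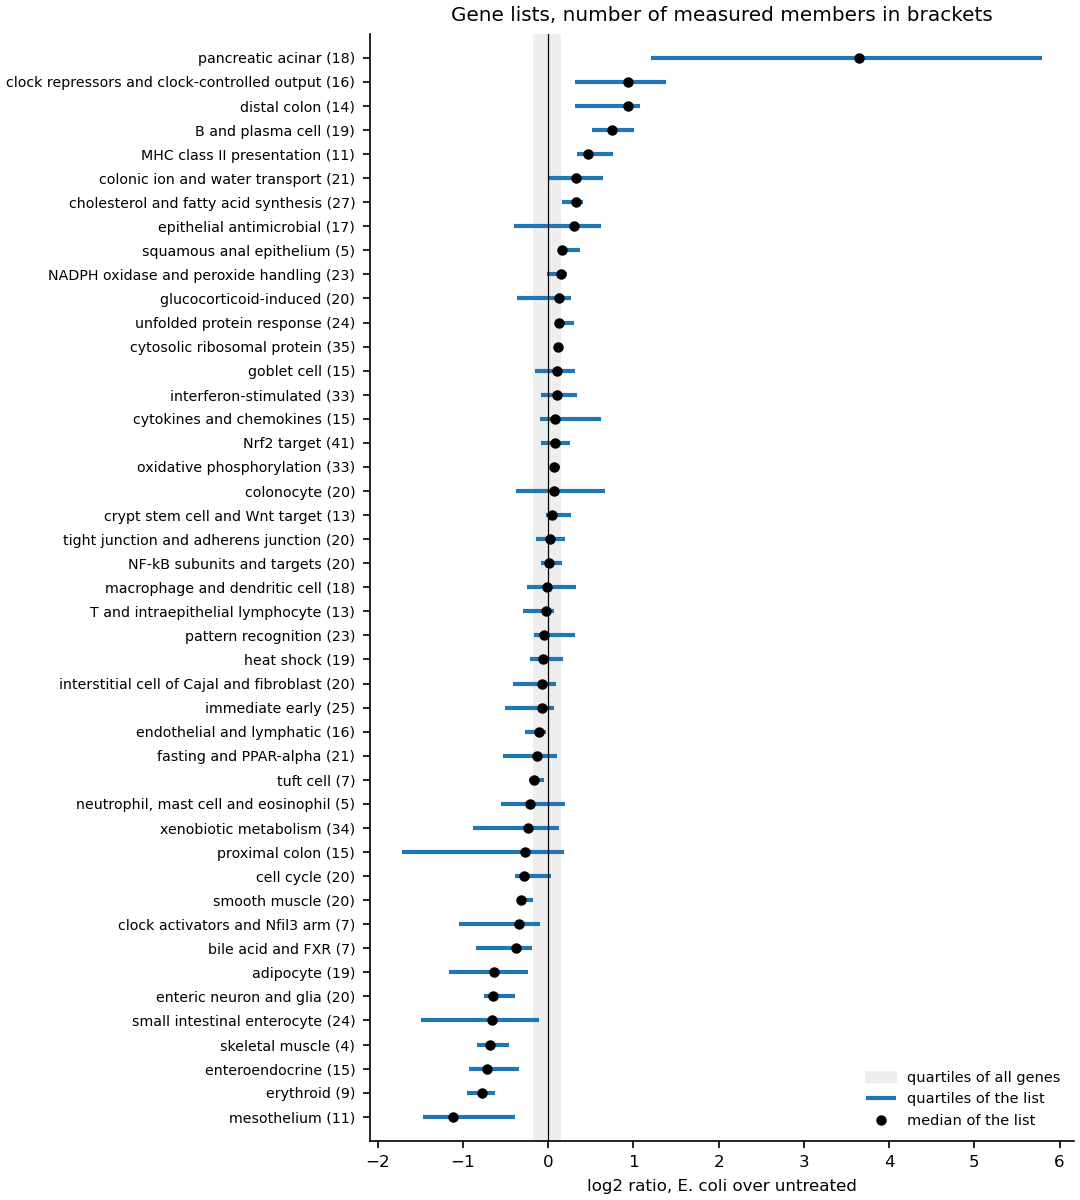
Median log2 ratio of E. coli over untreated for each of the 45 gene lists (points) with the quartiles of its members (bars), and the quartiles of all 14450 genes in grey; brackets give the number of measured members. Pancreatic acinar genes lie at 3.64, the clock and distal lists at 0.94, and mesothelium at -1.12.

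Genes by which tissue senses and answers bacteria are given beside the 2.35% of all genes that were past the rule. At that share a list of about 20 genes holds few or none, so a low count is no result about its genes. Of 23 pattern recognition genes 1 was past the rule, Cd180, a Toll-like receptor homologue of B cells. It was at 2.13 CPM after E. coli, 0.820 after LGG, 1.31 after PBS and 0.841 untreated, a ratio of 1.33 (0.64 to 2.09). Without the E. coli library its mean would be under the expression filter. Tlr4 was at -0.18 (-0.34 to -0.02), Tlr5 at -0.79 (-1.16 to -0.43), Cd14, the co-receptor for lipopolysaccharide, at 0.44 (0.29 to 0.59) and Myd88, the shared adaptor, at -0.06 (-0.18 to 0.06). The list median was -0.05. None of 20 NF-kB genes passed, and their median was 0.01 (-0.07 with library totals). Irf1 was at 0.23 (0.16 to 0.29), Nfkb1 at -0.01 (-0.08 to 0.07) and the feedback inhibitors Nfkbia at -0.10 (-0.19 to -0.01) and Tnfaip3 at 0.33 (0.24 to 0.42). A 2-fold difference lies outside all 4 of these counting intervals.

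Of 37 cytokine and chemokine genes in the table, 15 were measured and none passed, with a median of 0.08 (-0.0016 with library totals). Ccl6, a chemokine of myeloid cells, was at 0.08 (0.04 to 0.13) and Ccl28, a chemokine of mucosal epithelium that draws IgA cells, at 0.59 (0.52 to 0.67). Acute inflammatory genes had too few counts to be kept. Il1b had 8 counts after E. coli and 24 untreated, Cxcl1 12 and 6, and Tnf 22 and 15. Cxcl2, Il17a and Il22 had 0 in both libraries, so a small difference was not detectable at this depth.

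In the antimicrobial list 1 of 17 was higher and 2 were lower, with a median of 0.30. Reg3g, a lectin that kills Gram-positive bacteria, was at 1.17 CPM after E. coli, 2.43 after LGG, 1.99 after PBS and 3.05 untreated, a ratio of -1.37. Saa3, an acute phase protein, was at 1.31 CPM after E. coli, 1.67 after LGG, 1.62 after PBS and 2.80 untreated, a ratio of -1.09 (-1.70 to -0.52). The higher gene was the phospholipase Pla2g2a, at 2.03 CPM after E. coli, 1.16 after LGG, 1.74 after PBS and 0.911 untreated, a ratio of 1.14 (0.47 to 1.88). Its row carries a non-coding accession, so the value speaks of RNA and not of a working enzyme. None of 33 interferon-stimulated genes passed, with a median of 0.10. Irf7 was at -0.48 (-0.56 to -0.39) and Ifih1 at 0.34 (0.25 to 0.43), on opposite sides of 0.

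B cells carry the antigen receptor and plasma cells secrete antibody. Of 19 B and plasma cell genes 5 were higher past the rule and none lower, beside 0.824% and 1.53% of all genes. Positive ratios were found in 18, and the median was 0.75. Mzb1, a chaperone of antibody assembly, was at 2.10 CPM after E. coli, 1.09 after LGG, 1.62 after PBS and 0.631 untreated, a ratio of 1.71 (0.96 to 2.58). Derl3, an ER protein of secretory cells, was at 1.41 CPM after E. coli and 0.420 CPM untreated, a ratio of 1.71 (0.79 to 2.81). The complement receptor Cr2 was at 5.92 CPM after E. coli, 4.89 after LGG, 4.86 after PBS and 2.31 untreated, a ratio of 1.35 (0.94 to 1.79), and the IgE receptor Fcer2a at 5.78 CPM after E. coli, 3.76 after LGG, 6.11 after PBS and 2.35 untreated, a ratio of 1.29 (0.88 to 1.73). In all 4 genes the untreated library was the lowest of the series. Cd79b, a B cell receptor chain, also passed (1.02). Every one of the 11 MHC class II genes was positive, and their median was 0.47. H2-Ob, the class II modulator used by B cells, passed the rule at 8.68 CPM after E. coli, 6.56 after LGG, 9.22 after PBS and 4.27 untreated, a ratio of 1.02 (0.70 to 1.35).

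The medians of the T cell and macrophage lists were near 0, and that of the neutrophil, mast cell and eosinophil list was -0.21. None of 13 T cell genes passed, with a median of -0.03 that was 0.04 without the expression filter, and with Thy1 at -0.56 and Foxp3, the factor of regulatory T cells, at 0.07. None of 18 macrophage and dendritic cell genes passed, with a median of -0.01 (0.04 without the filter), Lyz2 at 0.38 and Mertk at 0.05. Of the 5 measured neutrophil, mast cell and eosinophil genes, Cma1, a mast cell chymase, was higher at 1.22 (0.46 to 2.07) and Alox15, a lipoxygenase, lower at 1.20 CPM after E. coli, 2.26 after LGG, 3.36 after PBS and 2.84 untreated, a ratio of -1.22 (-1.85 to -0.65). The neutrophil genes S100a8 and S100a9 had at most 1 count in any library.

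Genes that answer stress and growth signals within hours were mostly below the rule, as were most genes measured (2.35% of all were past it). Of 25 immediate early genes 1 passed, Egr1, at 23.2 CPM after E. coli, 27.3 after LGG, 29.5 after PBS and 55.3 untreated, a ratio of -1.25 (-1.39 to -1.12). Fosb was at -0.98 and Fos at -0.55, and the list median was -0.07. Of 20 glucocorticoid-induced genes Pdk4 alone passed, with 6.13 CPM after E. coli and 13.1 CPM untreated. Fkbp5 was at 0.30 and Tsc22d3 at 0.18, both classical targets. Heat shock genes had a median of -0.06, with Hsp90ab1 at 0.31 (0.29 to 0.33) and Hspa8 at -0.16 (-0.18 to -0.15). Unfolded protein response genes had 22 of 24 positive ratios and a median of 0.12, and Derl3, which the plasma cell list also holds, was the 1 past the rule.

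The series title names the Nrf2 pathway, the answer of cells to oxidants. Of 41 Nrf2 genes 1 was past the rule, which is near the 2.35% of all genes and so no result about the list. It was the glutathione transferase Gsta3, at 19.1 CPM after E. coli, 15.4 after LGG, 16.6 after PBS and 9.21 untreated, a ratio of 1.05 (0.84 to 1.27). Nfe2l2, which encodes Nrf2, was at -0.04 (-0.09 to 0.01) and Keap1, its inhibitor, at 0.03 (-0.05 to 0.12). Among targets Nqo1 was at -0.36 (-0.50 to -0.22), Hmox1 at -0.10 (-0.47 to 0.26), Gclc at -0.17 (-0.24 to -0.09), Gclm at 0.12 (0.02 to 0.22), Txnrd1 at 0.20 (0.16 to 0.25) and Srxn1 at 0.15 (0.09 to 0.21). Their signs were mixed, and the list median of 0.08 became -0.0036 with library totals. The malic enzyme Me1 was at 29.8 CPM after E. coli, 53.3 after LGG, 56.0 after PBS and 58.7 untreated, a ratio of -0.98 (-1.10 to -0.86). As with Scd1, the E. coli library alone was low.

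Of 23 NADPH oxidase and peroxide genes, Prdx6 alone passed, beside 2.35% of all genes, and the median was 0.15. Nox1, the oxidase of colon epithelium, was at 0.05 (-0.09 to 0.20) and Duox2 at -0.32 (-0.43 to -0.22). Oxidative phosphorylation genes had a median of 0.07 (-0.02 with library totals), with Atp5b at 0.10 and Atp5a1 at 0.06. Ribosomal protein genes had a median of 0.11, with Rplp0 at 0.03 and Rps2 at 0.13. Tight and adherens junction genes had a median of 0.02 (-0.07 with library totals) and none past the rule, as a short list can at that share. Cdh1, the epithelial cadherin, was at 0.41 and Ctnnb1, beta-catenin, at 0.05.

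Genes of the deeper wall mostly had negative ratios, few of them past the rule, beside 2.35% of all genes. All 20 enteric neuron and glia genes had negative ratios, with a median of -0.65. Gfap, a filament protein of enteric glia, was the 1 past the rule, at 3.99 CPM after E. coli, 4.44 after LGG, 5.98 after PBS and 8.20 untreated, a ratio of -1.03 (-1.37 to -0.71). All 20 smooth muscle genes were negative too, with a median of -0.32 and none past the rule. Myh11, smooth muscle myosin, was at 2303 CPM after E. coli, 2313 after LGG, 2487 after PBS and 2929 untreated, a ratio of -0.35 (-0.36 to -0.33). Desmin (Des) was at -0.18 (-0.20 to -0.16). Of 20 fibroblast and Cajal cell genes 2 were lower, the collagen and elastin cross-linking enzyme Lox at 4.99 CPM after E. coli, 4.65 after LGG, 5.17 after PBS and 13.0 untreated, a ratio of -1.38 (-1.67 to -1.10), and elastin (Eln) at 50.1 CPM after E. coli, 42.9 after LGG, 51.4 after PBS and 103 untreated, a ratio of -1.04 (-1.13 to -0.95). Their list median was -0.07, and Col1a1 was at 0.04. For Lox and Eln the untreated library stood high and the gavaged libraries were close together. Of 16 endothelial genes Prox1, the lymphatic factor, passed at -1.13 (-1.69 to -0.61), and the median was -0.10.

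Genes of the exocrine pancreas stood highest, beside 2210010C04Rik, a row under a clone name that no list holds (6.45 (4.90 to 9.82)). The ratio of that row to the untreated library was 5.49 for LGG and 4.53 for PBS, the library order given below for Pnlip. Pancreatic acinar cells make digestive enzymes. Of 18 measured acinar genes 14 were higher and none lower past the rule, beside 0.824% and 1.53% of all genes, with a median of 3.64. Pnlip, pancreatic lipase (NM_026925, mm9 chromosome 19 from 58744855 to 58756278), was at 12.7 CPM after E. coli, 6.60 after LGG, 2.87 after PBS and 0.140 untreated, a ratio of 6.33 (5.13 to 8.38) from 368 against 4 counts. Cpa1, a carboxypeptidase, was at 7.09 CPM after E. coli, 3.49 after LGG, 1.87 after PBS and 0.0701 untreated from 206 against 2 counts, a ratio of 6.35 (4.79 to 9.72). Cel, a lipase for cholesterol esters, was at 6.06 CPM after E. coli, 2.53 after LGG, 1.06 after PBS and 0.0701 untreated from 176 against 2 counts, a ratio of 6.12 (4.56 to 9.49). Ctrb1, a chymotrypsin precursor, was at 14.4 CPM after E. coli, 8.34 after LGG, 4.42 after PBS and 0.210 untreated, a ratio of 5.98 (4.96 to 7.55). In each the E. coli library was highest, LGG next, then PBS, with the untreated library lowest.

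The other acinar genes among the largest ratios were Try4 (5.95), Prss2 (5.33), Cela3b (4.50), Rnase1 (3.74), Pnliprp1 (3.74), Cpb1 (3.55), Cela2a (3.43) and Ctrl (3.18). Trypsin genes such as Try4 and Prss2 are near copies and can share reads. Leaving out Sycn and Cela1, which had over 100 CPM in every library, the acinar genes summed to 108 CPM after E. coli, 66.2 after LGG, 38.7 after PBS and 15.6 untreated. Prss1 and the amylase Amy2a5 had 0 counts in every library. What part such RNA has in the other gene groups was not tested.

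Mesothelium lines the outer surface of the colon. Of 11 measured genes 7 were lower past the rule and none higher, beside 1.53% and 0.824% of all genes, with a median of -1.12. Wt1, its transcription factor, was at 0.620 CPM after E. coli, 0.889 after LGG, 1.62 after PBS and 3.29 untreated, a ratio of -2.38 (-3.23 to -1.67). Lrrn4 was at 1.58 CPM after E. coli, 1.64 after LGG, 3.99 after PBS and 5.26 untreated, a ratio of -1.72 (-2.24 to -1.25), and Upk3b, a surface protein, at 3.99 CPM after E. coli, 6.77 after LGG, 9.85 after PBS and 12.8 untreated, a ratio of -1.67 (-1.99 to -1.37). The E. coli library had the lowest value of each. Krt19, Ezr and Dpp4 of that list are also made by epithelium, and the other 8 genes summed to 17.7 CPM after E. coli, 24.5 after LGG, 40.6 after PBS and 46.0 untreated.

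Of 19 adipocyte genes 8 were lower past the rule and none higher, beside 1.53% and 0.824% of all genes, with a median of -0.64. Plin1, which coats the lipid droplet of fat cells, was at 1.31 CPM after E. coli, 4.92 after LGG, 3.36 after PBS and 5.36 untreated, a ratio of -2.02 (-2.59 to -1.51). Lep, which encodes leptin, was at 0.379 CPM after E. coli, 1.85 after LGG, 1.12 after PBS and 1.33 untreated, a ratio of -1.77 (-2.93 to -0.82). Cfd, or adipsin, was at 18.0 CPM after E. coli, 44.8 after LGG, 36.6 after PBS and 56.7 untreated, a ratio of -1.66 (-1.80 to -1.51), and Car3, a carbonic anhydrase, at 23.0 CPM after E. coli, 47.6 after LGG, 40.1 after PBS and 60.5 untreated, a ratio of -1.39 (-1.53 to -1.27). The E. coli library had the lowest value of each of these 4 genes. The list summed to 627 CPM after E. coli, 841 after LGG, 688 after PBS and 822 untreated. Fat cells also make much Scd1 and Me1, and the part of this shift in those values was not tested.

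**Figure D5:**
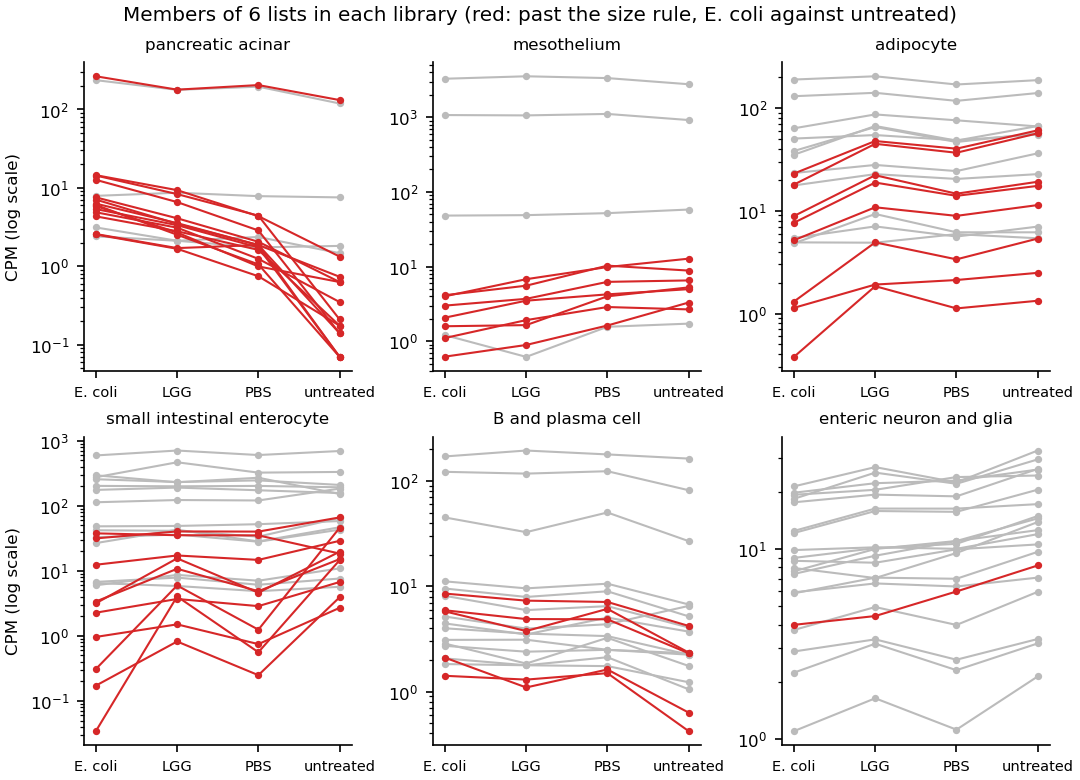
CPM on a log scale of the measured members of 6 lists in each of the 4 libraries, 1 line per gene, red where the gene was past the size rule in E. coli against untreated. Most red acinar lines descend from the E. coli to the untreated library, most red mesothelial lines ascend, the red adipocyte lines are lowest in the E. coli library, and the red B cell lines are lowest in the untreated library.

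The blood, skeletal muscle and squamous lists had few measured genes, so 1 past the rule says little beside 2.35% of all genes. Of 9 erythroid genes 1 was lower past the rule, and the median was -0.78. The adult globins Hbb-b1 and Hba-a1 were at -0.96 and -0.63, from rows that share reads with near copies. Of the skeletal muscle list 4 of 16 genes were measured with a median of -0.68, and Myl1 passed at -1.18 (-1.98 to -0.47). Of the squamous list 5 of 16 were measured and none passed, with a median of 0.16, Krt10 at 0.16 and Sprr1a at -0.57.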

How the data were processed

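Colon RNA was sequenced in 4 libraries, 1 per condition. The 1 table used holds expected counts for 24016 genes, deposited by the authors with RefSeq accessions and mm9 coordinates. Its making is known only from tool names, TopHat2 and HOMER, per the submitters' processing notes. The handling of strand, all versions and the origin of the table's steps of 0.5 were not given in the sources used here. Each estimated count was rounded to a whole number here. Rows for 390 genes stand for several genomic copies, whose reads cannot be assigned with certainty.

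Library sizes were scaled with TMM (edgeR 4.0.16, R 4.3.3), with factors of 0.989 for E. coli, 0.979 for LGG, 0.985 for PBS and 1.05 for untreated. Log2 ratios used a prior of 0.5 counts. Intervals at 95% were exact conditional binomial (Clopper-Pearson). The limit for a 0 was 3 counts. Reads carried no molecular identifiers and are not independent molecules, which neither interval nor limit covers. Software was Python 3.11.15, scipy 1.17.1, numpy 2.4.6, pandas 2.3.3 and matplotlib 3.10.9. The code was tested on simulated data. One library per condition gives no p-value.

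The gene groups and the 45 lists were chosen with earlier results of these data known. A rule named up to 15 higher and 15 lower genes by the interval bound nearest 0, leaving out non-coding, predicted, clone-named, histone and antigen receptor rows. It added, per list, up to 4 members past the rule by ratio (or the 2 with the highest mean CPM where none passed) and 8 genes of the Nrf2 pathway. A few of these genes are not reported here. Any other gene with a value was chosen after its values were seen. Alternatives were DESeq2 1.42.0 size factors, upper-quartile factors or library totals for scaling, 5 CPM or no minimum as the filter, a prior of 5, a 1.5-fold threshold, counts rounded down, and PBS in place of the untreated library.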

Additional observations from a re-analysis of the deposited data

How the results depend on the processing

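No paired analysis was possible because each condition has 1 library. The count of 340 genes, 119 higher and 221 lower, became 598 (201 higher, 397 lower) with no expression filter, 152 (68 and 84) at a mean CPM of at least 5, 1199 (407 and 792) at a 1.5-fold threshold and 60 (25 and 35) with the PBS library in place of the untreated one, of which 41 were among the 340. Library totals gave 92 higher and 282 lower and moved the median of all genes by -0.08. The other alternatives kept each count within 1.5 times. Of 595 values of named genes under the scaling, prior and rounding alternatives, 36 moved out of the main counting interval. A reversal was counted only for genes past the size rule, and there were 0. Shifts this small could hardly reverse a ratio of that size, so the 0 is no support. Changes of sign in named genes near 0 were not counted. Of 314 list medians, 9 changed sign, each beside 0. Depth limits genes of few counts, and no setting stands in for a replicate.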

Other observations

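Outside every list and the Hox family lay 235 of the 340 genes past the size rule, 75 higher and 160 lower. Among the higher ones Casp14, a caspase of cornifying epithelium, was at 51.1 CPM after E. coli, 28.2 after LGG, 47.3 after PBS and 14.4 untreated, a ratio of 1.83 (1.67 to 1.99). Pla2g4f, a cytosolic phospholipase A2, was at 35.2 CPM after E. coli, 19.8 after LGG, 31.3 after PBS and 10.3 untreated, a ratio of 1.77 (1.58 to 1.96). In both genes the E. coli and PBS libraries were high, LGG was between and the untreated library was low. Of 21 higher genes with a mean of at least 100 CPM, the transglutaminase Tgm3 was at 1412 CPM after E. coli, 983 after LGG, 1131 after PBS and 551 untreated, a ratio of 1.36 (1.33 to 1.38). Thbs4, a thrombospondin of the matrix, was at 1.35 (1.30 to 1.40), and the glycosyltransferase B3gnt7 at 1.20 (1.16 to 1.24). The gasdermins Gsdmc3 (1.08) and Gsdmc4 (1.00) were higher too, from neighbouring copies that can share reads. The order of the libraries in Tgm3 and B3gnt7 was that of the distal genes Prdx6 and Atp12a.

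Among the lower genes Adamts4, a protease that cuts proteoglycans, was at 0.551 CPM after E. coli, 0.444 after LGG, 0.499 after PBS and 4.55 untreated, a ratio of -3.01 (-3.90 to -2.29). It was high in the untreated library alone, and only through that library did it meet the expression filter. S100g, a calcium-binding protein of absorptive cells, was at 1.62 CPM after E. coli, 5.13 after LGG, 3.86 after PBS and 7.29 untreated, a ratio of -2.16 (-2.66 to -1.71). Osr2, a developmental transcription factor, was at 17.1 CPM after E. coli, 30.1 after LGG, 22.8 after PBS and 57.0 untreated, a ratio of -1.74 (-1.89 to -1.59). Isx, an intestinal homeobox factor that restrains vitamin A uptake, was at 36.0 CPM after E. coli, 61.5 after LGG, 46.6 after PBS and 104 untreated, a ratio of -1.53 (-1.64 to -1.43). These last 3 genes were lowest in the E. coli library, then PBS, LGG and untreated, the order seen for Apoa4 and Hoxb6. Complement C3 was at 84.1 CPM after E. coli, 91.9 after LGG, 147 after PBS and 188 untreated, a ratio of -1.16 (-1.23 to -1.09). It was 1 of 5 lower genes with a mean of at least 100 CPM. No cause was tested for any of these values.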
